A study of Mus musculus with 4 samples.

Results

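Myb, Runx1 and Spi1 encode transcription factors of hematopoietic progenitor cells, and the H3K27ac peaks at the 3 genes are described here in 2 related mouse cell lines. The members were every peak that shares at least 1 bp with a fixed window around each gene in the mm9 genome build. The windows were chr10:20820000-21030000 for Myb and the DNA between Myb and Hbs1l (210 kb), chr16:92580000-92850000 for Runx1 (270 kb) and chr2:90890000-90980000 for Spi1 (90 kb). They held 159 of the 151551 peaks in 6 lists, which are a list for each of the 4 samples and a pooled list for each line. A replicate list placed between 22 and 38 peaks in the 3 windows together.

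The study measured H3K27ac by chromatin immunoprecipitation and sequencing (ChIP-seq). G1E is an immortalized line made from embryonic stem cells of strain 129 in which Gata1 was knocked out, and it was left untreated. G1E-ER4 is G1E transduced to express GATA1-ER, a fusion of GATA1 with the hormone-binding part of the estrogen receptor, and it received 10 nM estradiol (E2) for 24 h, written G1E-ER4+E2. Both lines lack the endogenous Gata1 gene, and each had 2 replicates. G1E-ER4 cells without estradiol were not analysed here, so the effects of GATA1 activity, of the transduced line and of estradiol cannot be told apart. Nothing says whether the replicates were separate cultures, so a p-value measures only the spread between these samples. The lists hold no expression values and no genome annotation of their build was at hand, so the cell type was not checked against markers. In the later GRCm38.p6 build the neighbouring protein-coding genes are Ahi1 and Hbs1l for Myb. They are Clic6 and Setd4 for Runx1, and Slc39a13 and Mybpc3 for Spi1. A peak in a window, above all near its edges, therefore could not be assigned to the named gene or to a neighbour.

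MYB keeps progenitor cells dividing and its gene is known for distal control elements that lie toward Hbs1l. RUNX1 is needed for blood cells to emerge in the embryo and is transcribed from a distal and a proximal promoter. SPI1, also called PU.1, drives the myeloid and B-lymphoid fates, and it and GATA1 oppose each other. H3K27ac is a mark of active promoters and enhancers, and here a base is called acetylated when it lies in a peak.

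The sequences before the known starts of Myb and Runx1 are printed because the windows were drawn around these genes and the promoters differ in base composition. They are the 250 bases before the start as RefSeq gives them for the GRCm38.p6 build, 5′ to 3′ on the strand of the gene, with every CG in capitals. Their GRCm38 positions are chr10:21160985-21161234 for Myb, chr16:92826075-92826324 for the distal and chr16:92697330-92697579 for the proximal Runx1 promoter, all on the minus strand, and they were not placed on the mm9 peaks. RefSeq sequences matched 2 of the 3 members.
Myb: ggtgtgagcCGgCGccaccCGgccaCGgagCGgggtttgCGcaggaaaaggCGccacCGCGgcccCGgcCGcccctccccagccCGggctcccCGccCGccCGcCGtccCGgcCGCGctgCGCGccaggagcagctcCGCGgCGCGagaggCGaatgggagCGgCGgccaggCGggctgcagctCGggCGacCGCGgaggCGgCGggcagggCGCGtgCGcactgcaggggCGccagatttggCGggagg
Runx1 distal: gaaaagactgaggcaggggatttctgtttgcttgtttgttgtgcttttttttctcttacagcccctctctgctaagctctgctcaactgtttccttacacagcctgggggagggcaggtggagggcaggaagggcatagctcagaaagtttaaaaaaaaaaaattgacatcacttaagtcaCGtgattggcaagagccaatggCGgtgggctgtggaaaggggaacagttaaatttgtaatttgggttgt
Runx1 proximal: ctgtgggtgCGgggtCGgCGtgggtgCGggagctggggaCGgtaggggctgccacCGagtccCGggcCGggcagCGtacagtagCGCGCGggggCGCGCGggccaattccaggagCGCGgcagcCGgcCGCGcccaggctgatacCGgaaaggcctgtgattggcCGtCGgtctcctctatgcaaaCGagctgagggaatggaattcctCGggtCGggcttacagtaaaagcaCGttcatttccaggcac
The Myb promoter was 81.2% G or C and held 40 CG, more than 98.7% of the 32851 mouse promoters of the same length. The distal Runx1 promoter was 45.6% G or C and held 2 CG, more than 18.8% of promoters, whereas the proximal one was 67.6% G or C and held 27 CG, more than 91.4% of them. At least 1 CG was found in 92.1% of promoters and the median was 6. The GATA motif was searched on both strands in 4 spellings, of which AGATAA and AGATAG begin with A while TGATAA and also TGATAG begin with T, and had no match in the 3 sequences, while 8718 promoters (26.5%) held a match. No match says only that these letters are not in the windows printed.

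The lists differed between the lines. The replicate lists of G1E held 21557 and 23451 peaks covering 126 and 113 Mb, and those of G1E-ER4+E2 held 29087 and 26740 peaks covering 163 and 161 Mb. The median enrichment, a ratio that the authors' peak caller gave and whose reference is not stated, was 6.69 and 7.76 in G1E and 2.98 and 3.59 in G1E-ER4+E2. Enrichment was therefore read as a percentile, the percent of peaks in the same list with a lower enrichment. Between 86.5% and 92.5% of the peaks of a replicate overlapped a peak of the other replicate. Agreement in bases within the windows was lower. Of the bases acetylated in either replicate of G1E, 85.7% at Myb, 79.7% at Runx1 and 70.0% at Spi1 were acetylated in both. In G1E-ER4+E2 these shares were 72.7%, 70.6% and 70.1%.

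The acetylated length of the Myb window was shorter in G1E-ER4+E2 than in G1E. It was 130.4 and 116.2 kb in the G1E replicates and 78.4 and 81.2 kb in the G1E-ER4+E2 replicates, or 62.1% and 55.3% of the window against 37.3% and 38.7%. The groups did not overlap. The means were 123 ± 10.0 kb and 79.8 ± 1.98 kb (SD, n = 2), a difference of -43.5 kb (SE 7.24). A two-sided exact permutation test gave p = 0.333, the smallest value that this test allows with 2 against 2 samples, so by it no difference in length can pass a threshold of 0.05. The pooled lists put the lengths at 129.4 and 105 kb, a difference of -24.4 kb.

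Runx1 went the other way. Its window had 78.6 and 70.2 kb of acetylated length in the G1E replicates and 120 and 101.8 kb in the G1E-ER4+E2 replicates, again without overlap. The means were 74.4 ± 5.94 kb and 110.9 ± 12.9 kb (SD, n = 2), a difference of 36.5 kb (SE 10.0, exact permutation p = 0.333). The pooled lists put the difference at 58.8 kb. When the 4 lists were reduced to their most enriched peaks so that each covered the same length, it was 10.7 kb, and with only the peaks from the median enrichment of each list upward it was 20 kb.

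At Spi1 the lines overlapped when all peaks were counted. The acetylated length was 44.8 and 33.4 kb in the G1E replicates and 36 and 27.6 kb in the G1E-ER4+E2 replicates. The means were 39.1 ± 8.06 kb and 31.8 ± 5.94 kb (SD, n = 2), a difference of -7.3 kb (SE 7.08, exact permutation p = 0.667). This value rested on single libraries, since it was -1.6 kb without G1E replicate 1, -13 kb without G1E replicate 2, -11.5 kb without G1E-ER4+E2 replicate 1 and -3.1 kb without G1E-ER4+E2 replicate 2. It was -0.6 kb between the pooled lists. At equal covered length it was -15.9 kb and with only peaks from the median enrichment upward -9.6 kb, and in both of these the lines did not overlap (exact permutation p = 0.333). How often tiles lack overlap under these settings was not computed.

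**Figure D1:**
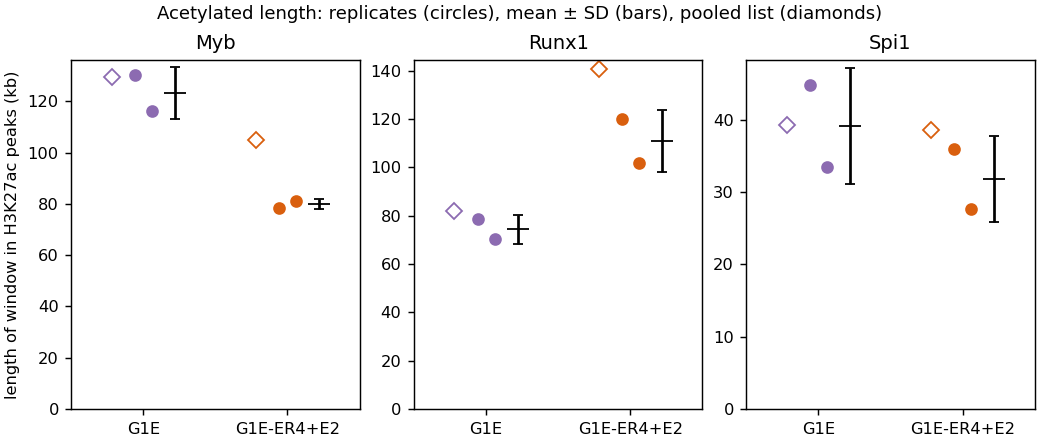
Acetylated length of the Myb, Runx1 and Spi1 windows in kb (vertical axes from 0) for G1E and G1E-ER4+E2. Filled circles are replicate lists, bars the mean ± SD of 2 replicates and open diamonds the pooled lists. The G1E circles lie above the G1E-ER4+E2 circles at Myb, below them at Runx1, and overlap them at Spi1.

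The whole genome was read the same way, in consecutive tiles as long as each window. Less acetylated length in both G1E-ER4+E2 replicates than in both G1E replicates was found in 31.3% of tiles as long as the Myb window and in 31.1% of tiles as long as the Spi1 window. More in both was found in 46.3% of tiles as long as the Runx1 window. A lack of overlap was therefore frequent in these lists. The median tile differed by 1 kb at the length of the Myb window, with quartiles of -2.8 and 12.7 kb, and by 1.3 kb at that of Runx1, with quartiles of -2.8 and 14.8 kb. The difference at Myb (-43.5 kb) lay above that of 0.475% of tiles and the difference at Runx1 (36.5 kb) above that of 90.6%. Only 13.0% of tiles had as much as 43.5 kb of acetylated length in G1E, so most could not have differed downward by that much. At the length of the Spi1 window the median was 0.8 kb and the quartiles -2.3 and 7.9 kb, and the Spi1 difference of -7.3 kb lay above that of 9.36% of tiles. There 45.5% of tiles had as much as 7.3 kb of acetylated length in G1E, so the rest could not have differed downward by that much.

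Because the G1E-ER4+E2 lists covered more of the genome, the length was also taken per Mb of peak in each list. Myb then had 1033 and 1027 bp per Mb in G1E and 481 and 505 bp in G1E-ER4+E2. Runx1 had 622 and 620 bp against 737 and 634 bp, and Spi1 had 355 and 295 bp against 221 and 172 bp. On this scale none of the 3 genes overlapped between lines, Myb and Spi1 were lower in G1E-ER4+E2 and Runx1 was higher by 10.2% of its G1E mean. Most of the Runx1 excess came from G1E-ER4+E2 replicate 1 (737 bp), since replicate 2 (634 bp) lay close to both G1E lists. How often tiles lack overlap on this scale was not computed.

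The pooled lists show which G1E acetylation was kept, meaning that the base also lay in a G1E-ER4+E2 peak, and which was lost. At Myb 96.2 of 129.4 kb were kept and 33.2 kb (25.7%) lost, in 11 stretches. At Runx1 78.8 of 82 kb were kept and 3.2 kb (3.90%) lost, in 3 stretches. At Spi1 21.6 of 39.2 kb were kept and 17.6 kb (44.9%) lost, in 5 stretches. Over all peaks the share lost was 29.4%. The Myb share was thus close to that of all peaks, while that of Runx1 was lower and that of Spi1 higher. Between lists of the same replicate number the Runx1 share was 9.41% and 7.12%, and the Myb share was 43.4% and 36.0%, against 34.4% and 31.8% over all peaks.

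Gains separated the genes further. Bases in a G1E-ER4+E2 peak and in no G1E peak came to 8.8 kb at Myb (6.80% of its G1E length), 62 kb at Runx1 (75.6%) and 17 kb at Spi1 (43.4%), against 72.7% over all peaks. In bases found in both G1E-ER4+E2 replicates and in neither G1E replicate, the gain was 2.8 kb at Myb, 23 kb at Runx1 and 7.2 kb at Spi1. As a share of the bases in both G1E replicates this was 2.46%, 34.8% and 22.4%, against 54.2% over all peaks. Between the replicate 1 lists the gain was 3.53% of the G1E length at Myb, 62.1% at Runx1 and 28.6% at Spi1, against 63.4% over all peaks, and between the replicate 2 lists it was 5.85%, 52.1% and 35.3%, against 73.7%. Myb and Spi1 were below the share of all peaks in each of these pairs of lists, while Runx1 was close to it in the pooled and replicate 1 lists and below it in the replicate 2 lists and in the bases shared by replicates.

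**Figure D2:**
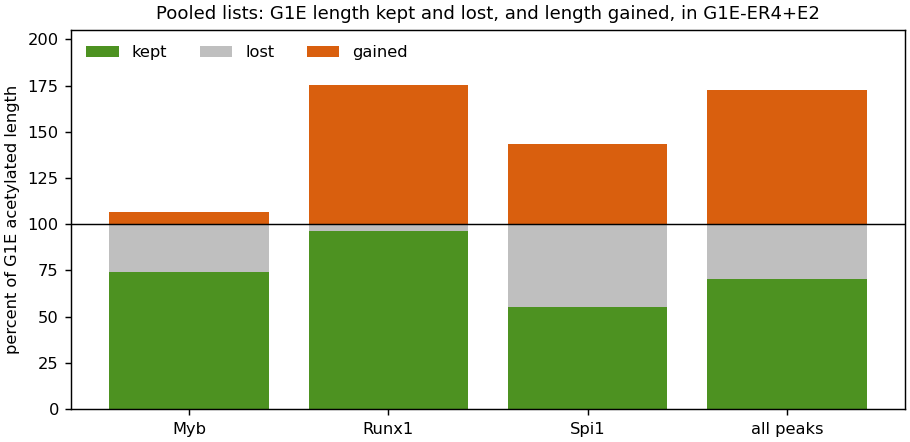
Percent of the G1E acetylated length in the pooled lists (vertical axis from 0, 100 is the G1E length) that was kept (green), lost (grey) or gained (orange) in G1E-ER4+E2, for each window and for all peaks. Myb lost 25.7% and gained 6.80%, Runx1 lost 3.90% and gained 75.6%, and Spi1 lost 44.9% and gained 43.4%.

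Counted as whole peaks in the pooled lists, few were lost. Of 7 G1E peaks at Myb, 9 at Runx1 and 6 at Spi1, 0, 0 and 1 had no overlap with a G1E-ER4+E2 peak, against 29.7% of all G1E peaks. Counted as lost when under 50% of the peak was covered, the numbers were 1, 0 and 2, against 35.7% of all G1E peaks. Between the replicate 1 lists, 1 of 7 G1E peaks at Myb, 0 of 8 at Runx1 and 0 of 7 at Spi1 had no overlap, against 27.1% of all G1E peaks. Between the replicate 2 lists the counts were 3 of 11, 1 of 7 and 1 of 5, against 31.2%. In the other direction, 0 of 9 G1E-ER4+E2 peaks at Myb, 7 of 12 at Runx1 and 1 of 6 at Spi1 overlapped no G1E peak, against 40.3% of all G1E-ER4+E2 peaks. The 3 longest Myb peaks of G1E were wider than between 98.1% and 99.2% of the peaks of their list, and the part of peak width in these counts was not tested.

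By enrichment percentile, 4 of the 7 Myb peaks, 0 of the 9 Runx1 peaks and 2 of the 6 Spi1 peaks ranked lower in both G1E-ER4+E2 replicates than in both G1E replicates, with an absent peak ranked lowest, against 31.8% of all G1E peaks. The reverse held for 3 Myb, 6 Runx1 and 3 Spi1 peaks, against 35.6% of all. Over the 3 genes the counts were 6 lower and 12 higher of 22. They are not independent, since neighbouring G1E peaks can take their rank from the same wider peak. The Spi1 peak chr2:90898601-90903800 stood at 36.0 and 32.9 in G1E and took 84.7 and 85.1 in G1E-ER4+E2 from a peak that also covers its stronger neighbour, and the Runx1 peak chr16:92783801-92791600 took 78.6 in G1E-ER4+E2 replicate 2 from a peak of 42.8 kb. The Runx1 peaks chr16:92760801-92763400 and chr16:92764201-92767400 shared 58.6 and 61.2.

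**Figure D3:**
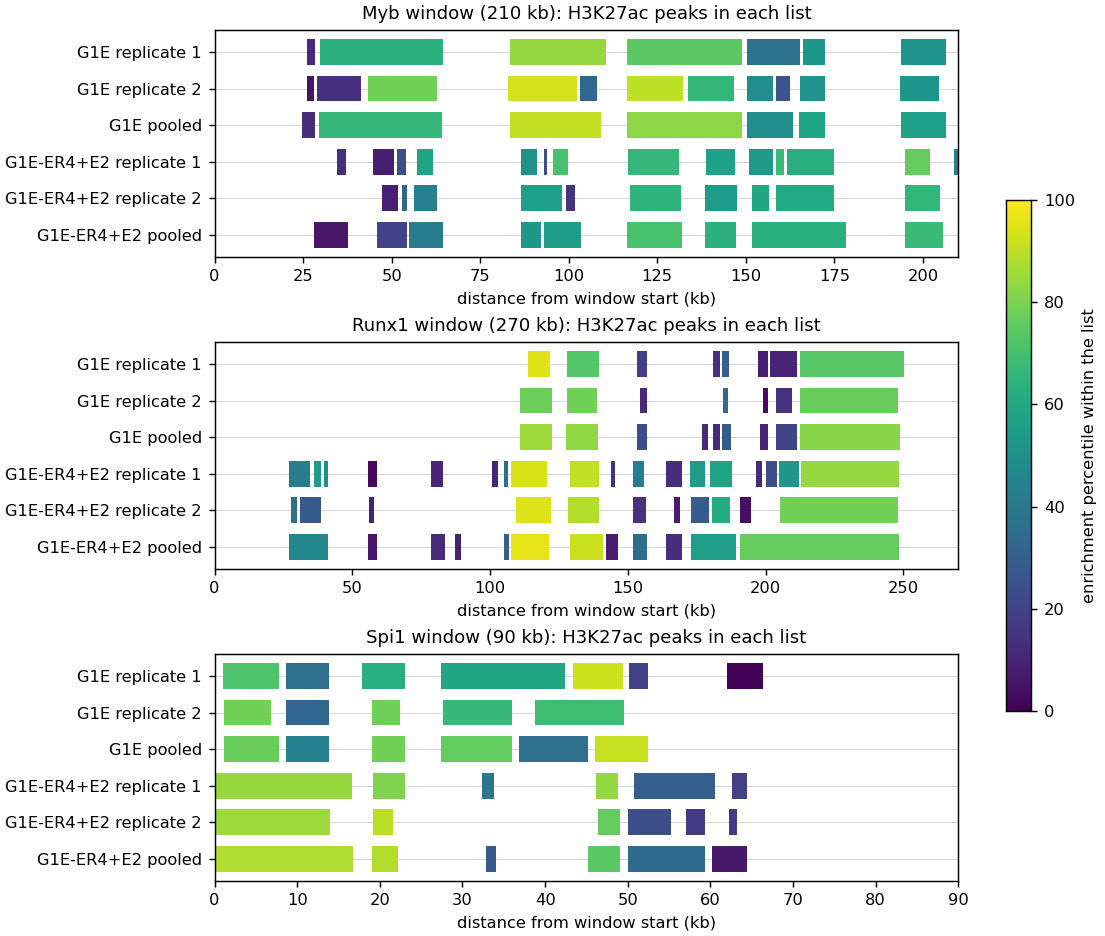
H3K27ac peaks of the 6 lists in the 3 windows, drawn to scale against the distance from the window start in kb, with the colour giving the enrichment percentile within the list. The 3 wide Myb peaks on the left of the pooled G1E list are several shorter peaks in G1E-ER4+E2 and 2 peaks each in G1E replicate 2, the left part of the Runx1 window holds peaks in the G1E-ER4+E2 lists alone, and the peaks in the middle of the Spi1 acetylation in G1E are mostly absent in G1E-ER4+E2.

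At Myb the acetylation lay in 5 regions that every replicate shared, after peaks of all 6 lists were merged. The share of all merged regions that every replicate shares was not computed, for Myb or for the other genes. The first, chr10:20844801-20884400, was acetylated over 36.8 and 33.8 kb in the G1E replicates and over 15.4 and 12.4 kb in the G1E-ER4+E2 replicates. Its highest percentile was 63.9 and 78.9 in G1E and 58.3 and 43.2 in G1E-ER4+E2. Both measures were lower in G1E-ER4+E2 without overlap. Most of it in the pooled G1E list was a peak of 34.8 kb, chr10:20849401-20884200, wider than 99.2% of its list and with an enrichment of 9.15. The pooled G1E-ER4+E2 list covered 73.6% of it with 3 peaks, chr10:20848201-20857600, chr10:20866001-20874200 and chr10:20875001-20884400, with enrichments of 1.56, 1.93 and 2.47. The other pooled G1E peak of the region, chr10:20844801-20848400 (3.6 kb, enrichment 2.20, percentile 13.1), was 5.56% covered and overlapped no peak of a G1E-ER4+E2 replicate. The gap of 8.4 kb between the first and the next of them was the longest stretch lost at Myb in the pooled lists. In bases of both G1E and neither G1E-ER4+E2 replicate the longest was 5 kb, chr10:20953601-20958600 in the third region. In the replicates the left border of the region moved from 20846201 in both G1E lists to 20854601 and 20867201 in the G1E-ER4+E2 lists.

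The next Myb region, chr10:20902801-20930600, held the most enriched G1E peak of the window. Its percentile was 84.1 and 93.2 in G1E and 71.0 and 55.8 in G1E-ER4+E2, and its acetylated length was 27.2 and 24.4 kb against 9.8 and 14.2 kb. The pooled G1E peak chr10:20903401-20929000 had an enrichment of 16.6 at a percentile of 90.7, and 63.3% of it was in pooled G1E-ER4+E2 peaks, the highest of which had an enrichment of 3.03 at a percentile of 54.8. The edges were drawn in on both sides, with 3 kb lost on the left and 5.6 kb on the right. The third region, chr10:20936401-20969000, was acetylated over 32.6 and 28.8 kb in G1E and 22.6 and 23.4 kb in G1E-ER4+E2, with percentiles of 74.6 and 90.2 against 66.5 and 64.5. Its outer borders were nearly the same in all lists, and a stretch of 6.6 kb in its middle, chr10:20952001-20958600, was lost from the pooled list.

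The remaining pair of shared Myb regions had higher percentiles and lower enrichments in G1E-ER4+E2, whose lists hold more peaks, and the part of list length in these ranks was not tested. In chr10:20970401-20998200 the length was 21.2 and 18.4 kb in G1E and 22.4 and 21.2 kb in G1E-ER4+E2, which touch at 21.2 kb. The percentile was 53.1 and 51.4 against 67.9 and 60.7, higher in G1E-ER4+E2 without overlap, and the enrichment was 7.25 and 8.07 against 4.26 and 4.50. The largest gain at Myb, 5.8 kb at chr10:20992401-20998200, lay at its right end. In chr10:21013601-21026400 the length was 12.6 and 10.8 kb against 7 and 10 kb, shorter in G1E-ER4+E2 without overlap. Its percentile was 51.9 and 52.5 against 76.3 and 65.8, higher without overlap. This region held the most enriched peak of the Myb window in both G1E-ER4+E2 replicates, with enrichments of 5.44 and 5.13 against 7.05 and 8.36 in G1E. The highest percentile in the window thus lay in the second region in both G1E replicates and in the fifth in both G1E-ER4+E2 replicates, although in the pooled G1E-ER4+E2 list it lay in the third. A sixth region at the window edge, chr10:21028801-21030200, was found in G1E-ER4+E2 replicate 1 alone.

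Over the whole Myb window the highest percentile was 84.1 and 93.2 in G1E and 76.3 and 65.8 in G1E-ER4+E2, without overlap (exact permutation p = 0.333). The median percentile of its peaks was 53.1 and 51.4 against 55.9 and 55.2. In the pooled lists that median was 58.4 in G1E and 54.8 in G1E-ER4+E2, so the highest percentile was lower in G1E-ER4+E2 in both kinds of list and the median had no single direction. The Myb peaks numbered 7 and 11 in the G1E replicates and 14 and 10 in the G1E-ER4+E2 replicates, which overlap.

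At Runx1 the merged peaks formed 13 regions, of which 5 were found in all 4 replicates, 7 in a G1E-ER4+E2 replicate and no G1E replicate (against 32.1% of all merged regions of the genome), and 1 in the pooled G1E-ER4+E2 list alone. The widest, chr16:92770801-92830400, was acetylated over 51.0 and 43.4 kb in the G1E replicates and 49.2 and 46.6 kb in the G1E-ER4+E2 replicates, and the groups overlapped. Its percentile was 73.5 and 76.7 in G1E and 84.3 and 78.6 in G1E-ER4+E2. In the pooled lists the G1E peak chr16:92792601-92828800 (36.2 kb, enrichment 13.1, percentile 82.2) was 99.4% covered by chr16:92770801-92828600 (57.8 kb, enrichment 5.15, percentile 76.4), which was wider than 99.4% of its list. The right borders differed by 200 bp, and the left border of the pooled peak lay further out in G1E-ER4+E2. In the replicates the main peak began at 92792601 in both G1E lists, at 92793001 in G1E-ER4+E2 replicate 1 and at 92785201 in replicate 2, so the wider peak was not found in replicate 1.

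The strongest Runx1 peaks ranked high in both lines. Region chr16:92687601-92702600 had a percentile of 95.3 and 77.5 in G1E and 93.9 and 94.7 in G1E-ER4+E2, which overlap, and its length was 7.8 and 11.8 kb against 13.2 and 12.6 kb. In the pooled lists its peak stood at 14.3-fold and a percentile of 85.3 in G1E and at 10.6-fold and 96.2 in G1E-ER4+E2. The neighbouring region chr16:92707401-92721000 was 11.6 and 11.2 kb long in G1E and 10.4 and 11.2 kb in G1E-ER4+E2, and its percentile was 73.0 and 78.5 against 90.6 and 88.3. Its enrichment was 11.7 and 15.9 in G1E and 8.86 and 10.5 in G1E-ER4+E2. In this region, and between the pooled lists in the first, enrichment was thus lower as a ratio and higher as a rank. Enrichments were lower over the whole G1E-ER4+E2 lists, and the part of this in the ranks was not tested.

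Between these regions and the widest lay chr16:92752601-92769400, which was acetylated over 4.8 and 1.6 kb in G1E and over 13.4 and 13 kb in G1E-ER4+E2. Its percentile was 29.9 and 32.6 in G1E and 58.6 and 61.2 in G1E-ER4+E2, so both measures were higher without overlap. The pooled G1E list had 3 short peaks there and the pooled G1E-ER4+E2 list a single peak of 16.4 kb, chr16:92753001-92769400, which was 2 separate peaks in each G1E-ER4+E2 replicate. The short region chr16:92731801-92736800 held 3.4 and 2.2 kb in G1E and 4 and 4.8 kb in G1E-ER4+E2 at percentiles of 17.7 and 11.3 against 42.5 and 14.3, which overlap.

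New acetylation at Runx1 was found in both G1E-ER4+E2 replicates and in no G1E list at 3 regions, a pattern of 18.9% of all merged regions. The longest, chr16:92607201-92621000, held 11.6 and 9.8 kb with percentiles of 55.0 and 37.1, and a single pooled peak of 13.8 kb. Region chr16:92635601-92638800 held 3.2 and 1.6 kb at percentiles of 2.30 and 9.55, and chr16:92743801-92749600 held 5.6 and 2.2 kb at percentiles of 12.6 and 7.51. The first of these was of middle rank and the other two were among the weakest peaks of their lists. The 4 regions found in G1E-ER4+E2 replicate 1 alone among the replicates ranked between the percentiles 10.3 and 36.0.

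Over the Runx1 window the highest percentile was 95.3 and 78.5 in G1E and 93.9 and 94.7 in G1E-ER4+E2, and the groups overlapped (exact permutation p = 1). There were 8 and 7 peaks in the G1E lists and 18 and 11 in the G1E-ER4+E2 lists. In G1E the acetylation began at 92693801 and 92690801, and in G1E-ER4+E2 at 92607201 and 92607801, while its right border lay between 92828000 and 92830400 in all 4.

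At Spi1 the merged peaks formed 3 regions, all of them found in every replicate. The first crosses the left edge of the window, chr2:90883001-90906800, and its part inside the window held 12 and 10.8 kb in G1E and 16.6 and 14 kb in G1E-ER4+E2. Its percentile was 71.9 and 78.6 in G1E and 84.7 and 85.1 in G1E-ER4+E2. Both were higher in G1E-ER4+E2 without overlap, and the 2 G1E peaks there were a single peak of 23.6 and 20 kb in the G1E-ER4+E2 replicates, which began 7 and 6 kb outside the window. With whole peaks counted instead of the part inside the window, the difference at Spi1 was -0.8 kb. The second region, chr2:90907801-90913000, held 5.2 and 3.4 kb in G1E and 3.8 and 2.4 kb in G1E-ER4+E2, and its percentile was 62.6 and 78.1 against 80.9 and 89.6.

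The third Spi1 region, chr2:90917401-90956400, held most of the lost acetylation. Its length was 27.6 and 19.2 kb in G1E and 15.6 and 11.2 kb in G1E-ER4+E2, without overlap. Its percentile was 92.5 and 68.6 against 83.7 and 76.5, which overlap. The pooled G1E peak chr2:90917401-90926000 (8.6 kb, enrichment 11.4, percentile 76.1) was 14.0% covered in G1E-ER4+E2, by a peak of 1.2 kb with an enrichment of 2.12 at a percentile of 27.6. In the replicates that peak was ranked at 39.4 in G1E-ER4+E2 replicate 1 and was absent from replicate 2. The next G1E peak, chr2:90926801-90935200 (8.4 kb, enrichment 3.86, percentile 36.1), was the single peak of the 22 with no overlap in the pooled list, and it too was absent from both G1E-ER4+E2 replicates. Neither G1E replicate separated it from its neighbours, with peaks at chr2:90917401-90932400 and chr2:90933401-90939400 in replicate 1 and at chr2:90928801-90939600 in replicate 2. Its percentiles in the G1E replicates, 92.5 and 68.6, which placed it among the 2 Spi1 peaks counted as lower, are those of peaks that also cover the strong peak to its right.

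Beside this loss a strong Spi1 peak was kept. The pooled G1E peak chr2:90936001-90942400 had an enrichment of 16.9 at a percentile of 91.3, and the G1E-ER4+E2 peak chr2:90935201-90939000 had 4.86 at a percentile of 74.3. To its right, 7 kb at chr2:90942401-90949400 were acetylated in the pooled G1E-ER4+E2 list and not in that of G1E, in a peak at a percentile of 34.4. The pooled G1E-ER4+E2 peak chr2:90950201-90954400 overlapped no pooled G1E peak, although G1E replicate 1 held a peak there of low rank, chr2:90952001-90956400, with an enrichment of 1.41 at a percentile of 0.520. Acetylation in the third region was thus lost on the left and gained on the right of a peak that stayed.

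Over the Spi1 window the highest percentile was 92.5 and 78.6 in G1E and 84.7 and 89.6 in G1E-ER4+E2, which overlap (exact permutation p = 1). The place of the highest rank was the third region in G1E replicate 1, the first in G1E replicate 2 and in G1E-ER4+E2 replicate 1, and the second in G1E-ER4+E2 replicate 2.

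**Figure D4:**
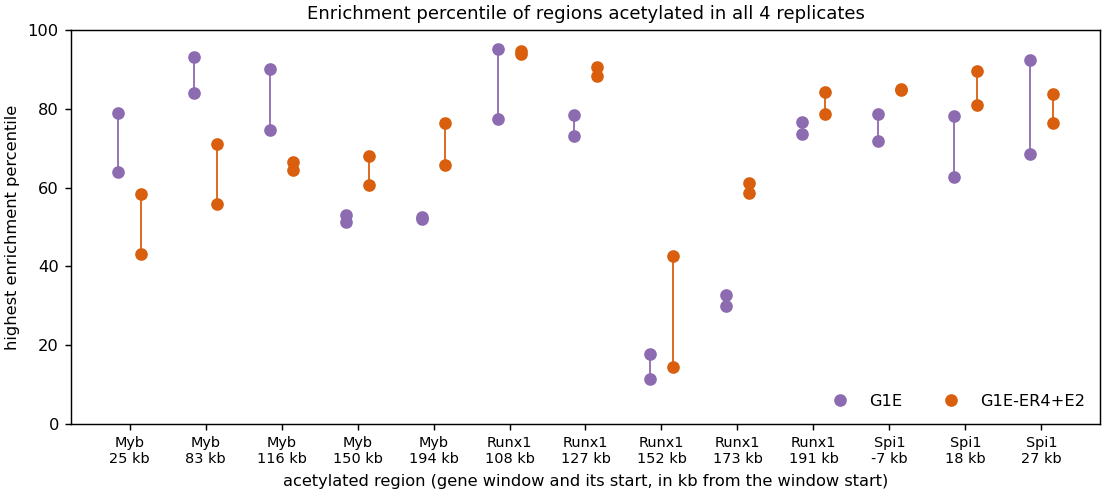
Highest enrichment percentile within the list (vertical axis, 0 to 100) of each region acetylated in all 4 replicates, labelled by gene and by the start of the region in kb from the window start. Points are replicates and lines join the 2 replicates of a line. The first 3 Myb regions lie lower in G1E-ER4+E2 and the other 2 higher, and no Runx1 or Spi1 region lies lower without overlap. The share of all merged regions that lie lower or higher was not computed.

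Set side by side, the windows differed in what was kept. Runx1 kept nearly all of its G1E length in every pair of lists (90.6% and 92.9% between lists of the same replicate number). Length was gained on both sides of 92690801, where the first pooled G1E peak starts. The gain was 29 kb to the left and 33 kb to the right in the pooled lists. It was 11.6 and 11.4 kb in bases of both G1E-ER4+E2 and neither G1E replicate. As a share of G1E length, the pooled gain was 75.6% at Runx1 against 72.7% over all peaks. In the bases shared by replicates it was 34.8% against 54.2%. The Runx1 gain was thus close to or below that of all peaks. The 5 Myb regions were described because every replicate shared them, so their presence in both lines is given by that choice. In G1E-ER4+E2 the first 3 and the fifth had less acetylated length, and the first 3 had a lower rank. Spi1 kept 51.8% and 47.3% between lists of the same replicate number, the lowest shares of the 3, in a window of which less than 50% was acetylated in every list. These differences between genes were not tested, since each gene is a single window.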

How the data were processed

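H3K27ac was measured by ChIP-seq in 4 samples, 2 replicates of G1E and 2 of G1E-ER4+E2. The authors deposited a broad peak list for each sample and a pooled list for each line, and how the lists were pooled is not stated. Each peak carries an enrichment, a linear ratio, and a p-value and q-value as deposited by the authors. The submitters' processing notes name bcl2fastq 1.8.4, Bowtie 1.0.0, SICER 1.1 and the mm9 build, without roles or parameters, and the control library is not given in the sources used here. No q-value exceeds 0.01, and borders lie on a grid of 200 bp. Without read counts in the lists the depth behind a peak is unknown, and counting intervals were not computed.

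Peaks that share at least 1 bp with a window were taken by coordinates and clipped to it for lengths (Python 3.11.15, NumPy 2.4.6, pandas 2.3.3). Groups of 2 replicates were compared with a two-sided exact permutation test. Regions were the merged peaks of the 6 lists. Background shares were computed from all peaks, and from consecutive tiles of the window length that hold a peak in at least 1 list. The length computations were tested on simulated windows. Alternatives were single replicate lists, left-out replicates, a replicate block, equal covered length, peaks from the median enrichment upward, a q-value of at most 1e-10, whole peaks and a 50% overlap. No mm9 annotation was used, so planned lists of progenitor and erythroid genes were left out and start sites were not placed on the peaks. The members, lists and tests were chosen with earlier results of these data known. The named genes were the 3 members, with every overlapping peak.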

Additional observations from a re-analysis of the deposited data

How the results depend on the processing

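For the difference in acetylated length, 10 alternatives were computed for each gene and all kept its direction at Myb, Runx1 and Spi1. With single replicates left out it ranged from -50.6 to -36.4 kb at Myb, from 27.4 to 45.6 kb at Runx1 and from -13 to -1.6 kb at Spi1. The replicate numbers are not said to mark a shared culture or day, and the deviations of same-numbered samples from their group means correlated at 0.327 over 6521 tiles. With the replicate number as a block, the differences stayed at -43.5, 36.5 and -7.3 kb, and an exact sign-flip test over 2 pairs cannot go below p = 0.5. The share of G1E length lost also moved. At Myb (25.7% between pooled lists) it was 43.4% between the replicate 1 lists, 36.0% between the replicate 2 lists, 45.6% with the G1E-ER4+E2 list reduced to the covered length of G1E and 48.0% with only peaks from the median enrichment upward. At Runx1 (3.90%) the first 3 of these gave 9.41%, 7.12% and 8.05%, and at Spi1 (44.9%) the 4 gave 48.2%, 52.7%, 54.1% and 50%. Over all peaks the share lost at equal covered length was 39.7%, and 44.6% of G1E peaks had no overlap, against 27.1% between the replicate 1 lists and 31.2% between the replicate 2 lists. The count of lost peaks at Myb (0 of 7) was 1 with a 50% overlap, 1 of 7 in the replicate 1 lists, 3 of 11 in the replicate 2 lists and 2 of 7 at equal covered length. At Runx1 (0 of 9) it was 1 of 7 in the replicate 2 lists and 1 of 9 at equal covered length. At Spi1 (1 of 6) it was 2 of 6 with a 50% overlap, 0 of 7 in the replicate 1 lists and 2 of 6 at equal covered length. Why these values moved was not tested, except that a reduced list covers fewer bases by construction. With 2 samples per group no length difference can pass a threshold of 0.05 in the exact permutation test, and without read counts a gap between peaks cannot be told from a signal below the caller's threshold.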
